A study of Mus musculus with 4 samples.

Results

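The miR-103 and miR-107 miRNAs were taken from a table of mature miRNA reads as every row named miR-103 or miR-107, on either arm and from any copy. This gave 5 of 942 mature miRNAs: miR-103-3p, miR-107-3p, miR-103-1-5p, miR-103-2-5p and miR-107-5p. The reads came from small RNA libraries of the brain cortex of 4 B6C3 mice aged 9 months. WT1 and WT2 were wild type, and APP3 and APP4 carried the APPswe/PS1deltaE9 transgenes and are called AD mice. APP3 was the sibling of WT2 and APP4 the sibling of WT1, so that each pair held 1 mouse of either genotype. The transgenes encode mutant forms of APP, the precursor of the amyloid β peptide, and of PS1, a subunit of γ-secretase, and mice that carry them form amyloid plaques. Both are directed to neurons of the central nervous system. Whole cortex was used, so fewer cells of a type and less miRNA per cell cannot be told apart.

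miR-103 and miR-107 are made from introns of genes that encode pantothenate kinases, the enzymes that start the synthesis of coenzyme A. Their 3p strands are the guide strands, which are loaded into Argonaute and pair with target mRNAs through the seed at their 5′ end, while the 5p strands are passenger strands that are mostly degraded. Known targets include Dicer1, the enzyme that cuts miRNA hairpins, and Cav1, which takes part in insulin signalling. Bace1, the β-secretase that starts the release of amyloid β from APP, is a target of miR-107.

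The mature sequences are shown because the difference between miR-103 and miR-107 bears on how their reads can be told apart. They are printed 5′ to 3′ as RefSeq gives them for GRCm38.p6, with the seed, bases 2 to 8, in capitals.
miR-103-3p: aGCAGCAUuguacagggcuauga
miR-107-3p: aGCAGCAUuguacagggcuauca
miR-103-1-5p: gGCUUCUUuacagugcugccuug
miR-103-2-5p: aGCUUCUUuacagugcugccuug
miR-107-5p: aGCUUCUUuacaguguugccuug
Both guide strands have 23 bases and the same seed, and from miR-107-3p to miR-103-3p the only difference is C22G, counted from base 1 at the 5′ end. The 5p strands differ from miR-107-5p to miR-103-2-5p by U16C, and from miR-103-2-5p to miR-103-1-5p by A1G. RefSeq held a sequence for 754 of the 942 miRNA names. Of these, miR-103-3p and miR-107-3p were the only 2 with the seed GCAGCAU, and the 5p strands the only 3 with GCUUCUU. The study's methods name a limit of 2 mismatches and 2 changed bases at either end for counting and no mismatch for miRBase. They count variants of changed length or sequence with the mature miRNA. The study's supplement, however, lists reads with mismatches among those matched to miRBase. C22G lies next to the last base. How a read without that base was assigned is not given in the sources used here, so the split between miR-103-3p and miR-107-3p is uncertain and their summed reads are also given.

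GENCODE vM21 places the 3 hairpins, on GRCm38, on the strand of their host genes and on none of their exons. Introns were counted in the coding transcript with the most exons. Mir103-1 is at chr11:35782396-35782481 on the plus strand, in intron 5 of 6 of Pank3. Mir103-2 is at chr2:131288052-131288137 on the plus strand, in intron 5 of 6 of Pank2. Mir107 is at chr19:34820687-34820773 on the minus strand, in intron 5 of 6 of Pank1. All 3 hairpins are thus in the fifth intron. Mir103-1 and Mir103-2 give the same miR-103-3p, and only their 5p strands have rows of their own.

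The miRNA reads numbered from 19048747 in APP4 to 26085776 in WT1, and levels are given as reads per 1000000 miRNA reads (RPM). A count of 3 reads was between 0.115 RPM in WT1 and 0.157 RPM in APP4. The cortex neuron miRNAs miR-124-3p, miR-9-5p and miR-128-3p summed to between 68744 and 77113 RPM. The APP4 library stood apart in 5 epithelial miRNAs of the miR-200 family, which summed to 1108 RPM there and to between 45.4 and 64.5 RPM in the other libraries, with none of the 5 at 0 everywhere. The part of such cells in the values of APP4 was not tested.

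miR-103-3p was the most abundant of the 5 in every library. From the lowest to the highest library, its level was 3071 RPM in WT2, 3776 in APP3, 4418 in WT1 and 4732 in APP4. It ranked between 35 and 44 among the 942 miRNAs of a library, so it was among the abundant miRNAs of the cortex in all 4 mice. The mean was 3744 ± 952 RPM in WT mice and 4254 ± 676 RPM in AD mice (SD, n = 2), and the genotypes overlapped, since WT2 was the lowest library and WT1 was above APP3. The highest library was 1.54 times the lowest. Both mice of the sibling pair WT1 and APP4 were above both mice of the pair WT2 and APP3.

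miR-107-3p, the guide strand from Pank1, was lower but ordered the libraries in the same way. Its level was 650 RPM in WT2, 786 in APP3, 830 in WT1 and 970 in APP4, and it ranked between 81 and 96. The mean was 740 ± 128 RPM in WT mice and 878 ± 130 RPM in AD mice (SD, n = 2), and the genotypes overlapped here too. Together both guide strands made up 0.372% of the miRNA reads in WT2, 0.456% in APP3, 0.525% in WT1 and 0.570% in APP4. With library sizes corrected by TMM, a scaling that takes most miRNAs as unchanged, WT2 was still the lowest library for both but WT1, not APP4, was the highest.

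**Figure D1:**
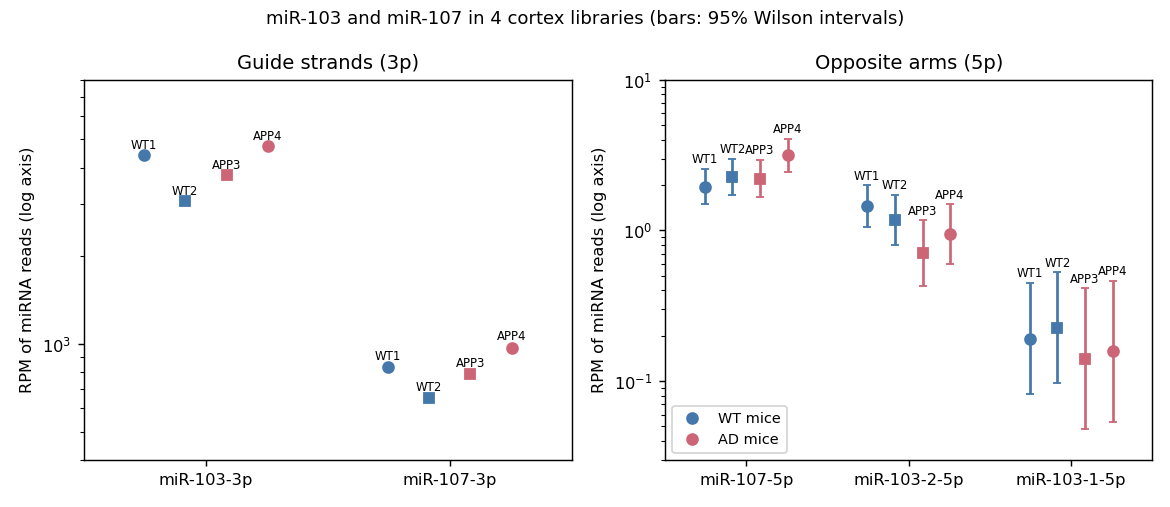
Level of each miR-103 and miR-107 miRNA in RPM on log axes, guide strands at left and 5p strands at right, with a point for each of the 4 libraries and bars for the 95% Wilson interval, which for the guide strands are smaller than the points. The guide strands lie at 650 to 4732 RPM with overlapping genotypes, and the 5p strands near or below 3 RPM.

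Each AD mouse was first set against its WT sibling, a comparison the study used. The study also compared all its sequenced mice at once and checked most of the miRNAs it listed by qRT-PCR in a larger group of mice. The siblings were compared here with Fisher's exact test, two-sided, of the reads. The false discovery rate (FDR) was taken over all miRNAs with a read in either library. To be called, a miRNA had to have an FDR below 0.05 and to differ by 1.5-fold or more. Such a test says whether the libraries differ, not whether the genotypes do, and the standard errors (SE) of its log2 fold changes cover counting error only. At an FDR under 0.05 alone, 40.3% of the miRNAs tested differed between APP4 and WT1 and 36.0% between APP3 and WT2. By the full rule 11.6% were called between APP4 and WT1 and 6.81% between APP3 and WT2.

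In RPM, both guide strands were higher in the AD sibling of either pair by less than 1.5-fold, though under TMM not between APP4 and WT1, and neither was called. Between APP4 and WT1 the log2 fold change was 0.10 (SE 0.0064, FDR 4.29e-53 by Fisher's exact test) for miR-103-3p and 0.22 (SE 0.014, FDR 7e-53) for miR-107-3p. Between APP3 and WT2 it was 0.30 for miR-103-3p and 0.27 for miR-107-3p (FDR 9.98e-62), and the FDR of miR-103-3p was below the smallest number computed. Of the miRNAs whose mean reached 50 RPM, 79.4% changed by more than miR-103-3p and 56.3% by more than miR-107-3p between APP4 and WT1. Between APP3 and WT2 the shares were 32.9% and 35.7%. TMM moved every log2 fold change between APP4 and WT1 by -0.25, and under it the values turned to -0.15 for miR-103-3p and -0.03 for miR-107-3p. Between APP3 and WT2 the shift was -0.02 and both remained higher, at 0.28 and 0.26.

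The guide strands also differed between mice of the same genotype. These mice came from different sibling pairs, so a difference between mice and one between pairs cannot be told apart. The pairs differed in library make-up too, with miRNA reads at 83.4% of the clean reads in WT1 and in APP4, 88.7% in WT2 and 87.6% in APP3. Whether this bears on the guide strands was not tested. Between WT2 and WT1 the log2 fold change was -0.52 for miR-103-3p and -0.35 for miR-107-3p. Between APP4 and APP3 it was 0.33 for miR-103-3p and 0.30 for miR-107-3p, and 0.20 and 0.17 under TMM, below the values of APP3 and WT2. Neither was called in these comparisons, in which 10.1% of the miRNAs tested were called between WT2 and WT1 and 8.05% between APP4 and APP3, and 40.5% and 35.2% passed the FDR limit alone. Of the miRNAs whose mean reached 50 RPM, 13.1% differed by more than miR-103-3p between the WT mice and 29.8% by more than miR-107-3p. The lower level of the guide strands in WT2 was the largest of these differences for both, and it remained under TMM at -0.63 for miR-103-3p and -0.46 for miR-107-3p. At -0.63, miR-103-3p passed the 1.5-fold limit and was called.

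Of the 5 miRNAs, 3 passed the FDR limit between APP4 and WT1 and 1 was called. Of all miRNAs tested there, 40.3% passed and 11.6% were called. In each of the other 3 comparisons 2 of the 5 passed and 0 were called. Over all miRNAs tested, 36.0% passed between APP3 and WT2, 40.5% between WT2 and WT1 and 35.2% between APP4 and APP3. The shares called were 6.81%, 10.1% and 8.05%. The one of the 5 that was called was miR-107-5p, the passenger strand of Mir107. It had 51 reads in WT1 and 60 in its sibling APP4, and 50 in WT2 and 47 in its sibling APP3, or 1.96, 3.15, 2.26 and 2.21 RPM. APP4 was the highest library and WT1 the lowest, and the genotypes overlapped. Its log2 fold change was 0.69 between APP4 and WT1 (SE 0.27, FDR 0.032 by Fisher's exact test) and -0.03 between APP3 and WT2 (FDR 1). Under TMM the former was 0.43 and the call was lost.

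**Figure D2:**
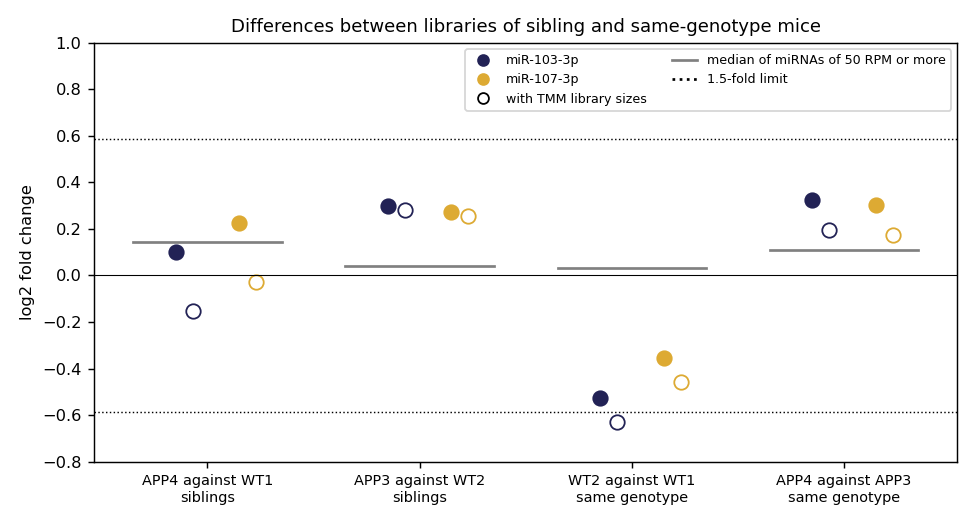
Log2 fold change of miR-103-3p and miR-107-3p in the 4 library comparisons, filled for RPM and open with TMM, with the median of the miRNAs of at least 50 RPM as a grey line and the 1.5-fold limit dotted. In RPM the guide strands moved by 0.10 to 0.30 between siblings and by -0.52 to 0.33 between mice of one genotype, and with TMM they lay below 0 between APP4 and WT1.

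Over the 4 mice no difference between the genotypes passed the test when the sibling pairs were left out of the fit. edgeR's quasi-likelihood test, with 623 miRNAs tested, gave 0 with a Benjamini-Hochberg adjusted p under 0.05, which is 0% of those tested, and 36 with an unadjusted p under 0.05. DESeq2 gave 0 and 28. With the sibling pair as a block, edgeR gave 2 under the adjusted limit, none of them a miR-103 or miR-107 miRNA. The log2 fold change with the block was 0.06 (SE 0.18) for miR-103-3p and 0.11 (SE 0.17) for miR-107-3p. In the fit without the block, the log2 fold change from WT to AD was 0.03 (SE 0.24, edgeR adjusted p 0.995) for miR-103-3p. It was 0.10 (SE 0.22, edgeR adjusted p 0.972) for miR-107-3p. Their summed reads gave 0.08 (SE 0.23) in a separate fit with its own TMM scaling. That value cannot be set directly beside the others, since miR-107-5p moved from 0.20 to 0.24 between the fits. The signs of miR-103-3p and miR-107-3p rested on single libraries. Without APP4, the library with the epithelial miRNAs, the values were -0.08 and -0.0043, and without WT2 they were -0.21 and -0.08. miR-107-5p gave 0.20 (SE 0.27, edgeR adjusted p 0.958) and miR-103-2-5p -0.82 (SE 0.36, edgeR adjusted p 0.768, unadjusted p 0.0540). miR-103-1-5p did not pass the filter on low counts, so that 4 of the 5 were tested.

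miR-103-2-5p, the passenger strand from Pank2, had 15 reads in APP3, 18 in APP4, 26 in WT2 and 38 in WT1. This is 0.705, 0.945, 1.18 and 1.46 RPM, and the AD mice lay below both WT mice. Among the 623 miRNAs tested in edgeR, 36.0% had genotypes that did not overlap. Neither sibling pair reached the FDR limit, with a log2 fold change of -0.60 (FDR 0.263 by Fisher's exact test) between APP4 and WT1 and of -0.72 (FDR 0.259) between APP3 and WT2. miR-103-1-5p, the passenger strand from Pank3, had 5 reads in either WT mouse and 3 in either AD mouse, at the limit of 3 reads in both AD mice, and no fold is given for it. The passenger strands from Pank2 and Pank3 are the only rows that could tell both miR-103 hairpins apart, and at 18 to 43 reads a library their balance could not be measured closely. They differ only by A1G, at an end where a limit named by the study allowed changed bases. How a read changed at that base was assigned is not given in the sources used here, so their split is also uncertain. The share of miR-103-1-5p among the reads of both was between 11.6% in WT1, where the 95% Wilson interval ran from 5.07 to 24.5%, and 16.7% in APP3.

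Ratios within a library do not depend on the scaling. miR-107-3p made up 15.8% of the guide strand reads in WT1, with a 95% Wilson interval from 15.6 to 16.0%. The share was 17.0% in APP4 (16.8 to 17.2%), 17.2% in APP3 (17.0 to 17.5%) and 17.5% in WT2 (17.2 to 17.7%). WT1 was thus below the other 3 libraries, which lay close together. The log2 ratio of miR-107-3p to miR-103-3p differed by 0.05 between AD and WT mice (exact permutation test, two-sided, p = 1, where 2 mice against 2 allow no p below 0.333). Without WT1 the difference was -0.035 and without WT2 it was 0.14. By Fisher's exact test adjusted over 20 such tests, it was higher in APP4 than in WT1 by 0.12 (adjusted p 3.75e-14) and in WT2 than in WT1 by 0.17 (adjusted p 3.49e-22). APP3 and WT2 differed by -0.02 (adjusted p 0.42).

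**Figure D3:**
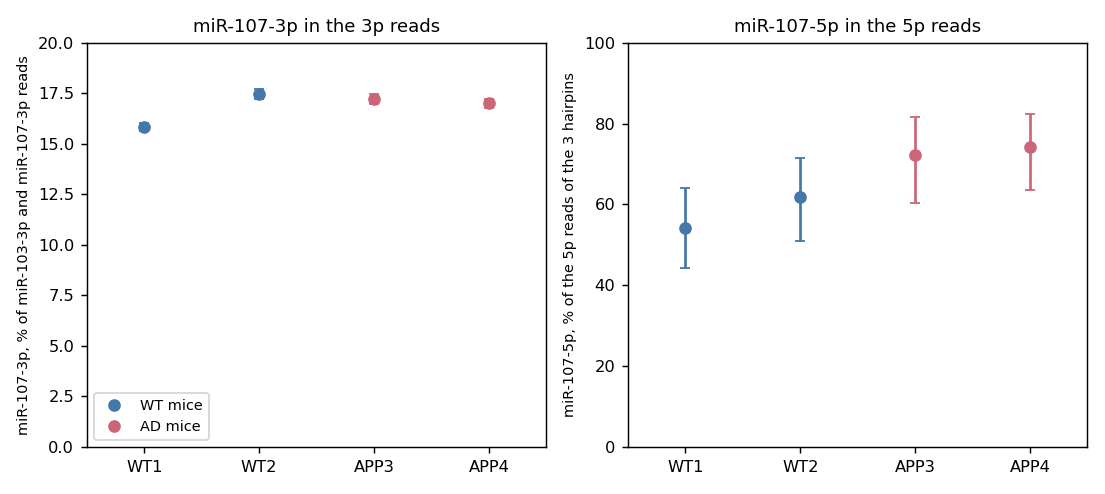
Share of miR-107-3p among the miR-107-3p and miR-103-3p reads, and of miR-107-5p among the 5p reads, in percent for the 4 libraries with 95% Wilson intervals. The guide strand share was 15.8% in WT1 and 17.0 to 17.5% in the others, and the 5p share was 54.3 and 61.7% in WT mice and 72.3 and 74.1% in AD mice.

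Among the 5p strands, miR-107-5p held the larger share in all 4 libraries, although its guide strand was the less abundant. It made up 54.3 and 61.7% of the 5p reads in WT1 and WT2, and 72.3 and 74.1% in APP3 and APP4. The genotypes did not overlap, but the intervals of 44.2 to 64.0% in WT1 and 60.4 to 81.7% in APP3 did. The log2 ratio of miR-107-5p to both miR-103 5p strands was 0.96 higher in AD mice (exact permutation test, p = 0.333, the smallest p possible). Fisher's exact test gave an adjusted p of 0.0508 between APP4 and WT1 and of 0.436 between APP3 and WT2. miR-107-5p and miR-103-2-5p differ only by U16C, and how a read with a mismatch there was assigned is not given in the sources used here. The shares and their intervals take the rows as separate.

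The guide strands outnumbered the 5p strands by far. For each read of its 5p strands, miR-103-3p had 2187 reads in WT2 and 2680 in WT1, and 4292 in APP4 and 4461 in APP3. The AD mice were higher, by 0.84 on the log2 scale (exact permutation test, p = 0.333, the smallest p possible), and neither pair passed Fisher's exact test, with adjusted p of 0.262 for APP4 and WT1 and 0.0744 for APP3 and WT2. This ratio and the share of miR-107-5p both count the miR-103 5p reads, most of which are miR-103-2-5p. Its lower level in AD mice, the higher share and the higher ratio are thus not separate differences. In the other ratios tested the genotypes overlapped, and ratios of other hairpins were not compared between genotypes. For each read of miR-107-5p, miR-107-3p had 287 reads in WT2, 308 in APP4, 356 in APP3 and 425 in WT1, with overlapping genotypes. Over all libraries the ratio was 3128 to 1 for miR-103, with its hairpins summed, and 342 to 1 for miR-107. Among the hairpins with at least 1000 reads on the larger arm the median was 48.7 to 1, and 11.6% were more uneven than miR-103 and 28.5% more uneven than miR-107. These shares count each hairpin alone, with all reads of a strand that several copies share, while miR-103 was summed over its copies. Like is thus not compared with like. Mir103-1 and Mir103-2, at 22093 and 3644 to 1 when counted alone, are themselves among the 11.6%.

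**Figure D4:**
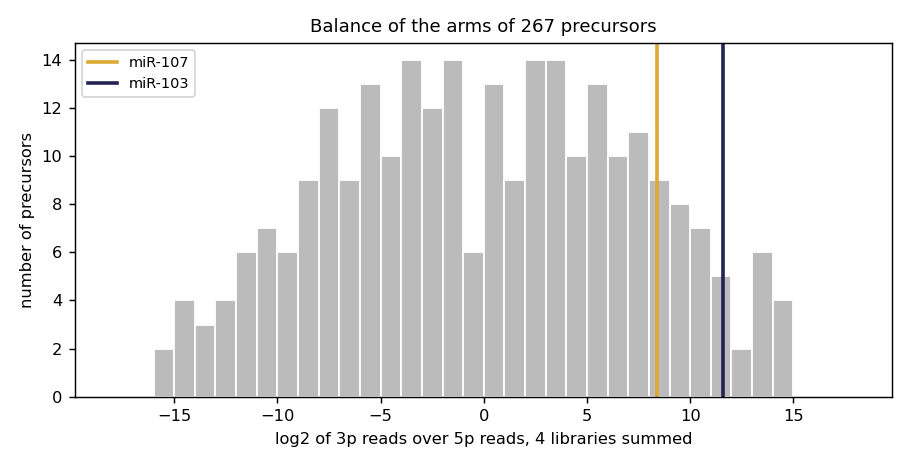
Number of hairpins (bars) by the log2 of 3p reads over 5p reads, summed over the 4 libraries, for hairpins with at least 1000 reads on the larger arm. The lines for miR-103, with its hairpins summed, at 11.60 and miR-107 at 8.42 lie toward the 3p end. In the bars each hairpin copy is counted alone.

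miR-103 and miR-107 belong to the miR-15 and miR-107 group, miRNAs that share the letters AGCAGC near the 5′ end and are known for roles in cell division, metabolism and neurons. In miR-103-3p and miR-107-3p these letters start at base 1, and in the others with a RefSeq sequence at base 2, so that the seeds are shifted by a base. The most abundant other member, and the one called between siblings, show the shift, with bases 2 to 8 in capitals.
miR-16-5p: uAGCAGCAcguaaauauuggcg
miR-15a-5p: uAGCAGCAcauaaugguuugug
The 8 other members of the group had miR-16-5p as the most abundant, with 7624 and 8845 RPM in WT1 and WT2 and 9468 and 9565 RPM in APP3 and APP4, so that both AD mice were above both WT mice in RPM. The genotypes of 36.0% of the miRNAs tested in edgeR did not overlap. Under TMM its genotypes overlapped, at 8722 in APP4 and 8938 in WT2. Between APP4 and WT1, 5 of the 8 were higher and 0 lower at an FDR under 0.05. Of all miRNAs tested, 40.3% passed and 11.6% were called. The median log2 fold change of the 8 was 0.29 against 0.21 for all miRNAs tested. Of the 6 with a mean of at least 1 RPM, 6 were higher in RPM and 4 under TMM. The one called was miR-15a-5p, with 178, 242, 233 and 297 RPM in WT1, WT2, APP3 and APP4 and a log2 fold change of 0.74. Under TMM this was 0.48 and the call was lost. Between APP3 and WT2, 2 were higher, 3 lower and 0 called, with a median of -0.11 against 0.05 and a share of 36.0% over all miRNAs. Over the 4 mice, 6 were tested by edgeR and 0 passed an adjusted p of 0.05.

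The guide strands went the other way from the rest of the group between the WT mice. Of the other members, the 6 with a mean of at least 1 RPM were all higher in WT2 than in WT1 at an FDR under 0.05, and all 6 were higher also under TMM and when scaled to clean reads. Of all miRNAs tested, 40.5% passed between the WT mice in either direction, and the median log2 fold change was 0.14. miR-103-3p and miR-107-3p were lower in WT2 by all 3 scalings. Their share of the reads of the 10 miRNAs of the group was 27.7% in WT2, 30.8% in APP3, 35.3% in APP4 and 38.7% in WT1. miR-16-5p held 65.9%, 63.8%, 59.2% and 56.2%. The share of the guide strands was thus highest in WT1 and lowest in WT2. It was higher in both mice of the pair WT1 and APP4 than in both mice of the pair WT2 and APP3.

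**Figure D5:**
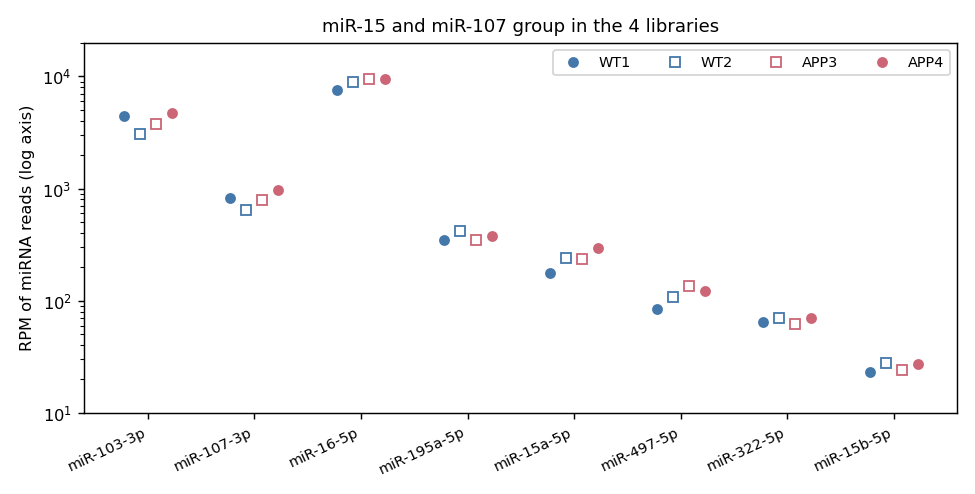
RPM on a log axis of miR-103-3p, miR-107-3p and the 6 other members of the group with a mean of at least 1 RPM, with a point for each of the 4 libraries, circles for WT1 and APP4 and open squares for WT2 and APP3. WT2 lies below WT1 for miR-103-3p and miR-107-3p and above it for the other 6.

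Other miRNAs that the study names as regulators of Bace1 were set beside miR-107. Of 6, 4 were higher and 1 lower at an FDR under 0.05 between APP4 and WT1, with a median log2 fold change of 0.38, and 5 were higher and 1 lower between APP3 and WT2, with a median of 0.12. Over all miRNAs tested, 40.3% and 36.0% passed, 11.6% and 6.81% were called and the medians were 0.21 and 0.05. Between WT2 and WT1, 4 of the 6 were higher and 2 lower, with a median of 0.29 and miR-298-5p called. Of all miRNAs tested there, 40.5% passed and 10.1% were called, with a median of 0.14. The one called between siblings was miR-29c-3p in APP4 and WT1, at 0.59, with 683 and 894 RPM in the WT mice WT1 and WT2 and 1014 and 1029 RPM in the AD mice APP3 and APP4. Its value lay just past the limit, and the call was lost under TMM (0.34) and without the 10 most abundant miRNAs (0.51). The most abundant, miR-9-5p, had a log2 fold change of -0.07 and 0.03 in the pairs, and miR-29a-3p 0.54 and 0.05. Of 7 miRNAs named as regulators of App, 5 were higher and 1 lower between APP4 and WT1, 3 were higher and 2 lower between APP3 and WT2, and 0 were called in either pair. By sign alone, whatever the FDR, 4 of the 6 regulators of Bace1 were higher between APP4 and WT1 in RPM and 3 under TMM. edgeR passed 0 of the 6 and 0 of the 7.

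The 3′UTR of mouse Bace1 holds the letters that pair with the seed of miR-103-3p and miR-107-3p, ATGCTGC, at 2 places. They are shown, on the plus strand of GRCm38, with the heptamer in capitals.
chr9:45862628-45862652: ccactctccaaaATGCTGCctttct
chr9:45863205-45863229: agctagtgctggATGCTGCacagtt
The heptamers start at bases 2345 and 2922 of the 4104 bases of the longest annotated 3′UTR of Bace1, and the one at base 2922 is followed by an A. Of 1586 3′UTRs of 0.8 to 1.25 times this length, 28.5% hold the heptamer and 4.48% hold it at 2 or more places. Only the transcript strand was searched. A match is a description of letters, and Bace1 mRNA was not measured in these libraries.

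Among the other miRNAs whose mean reached 50 RPM, the pattern most like that of miR-103-3p over the 4 libraries was that of miR-30c-2-3p, with a distance of 0.058 between the centred log2 RPM. miR-540-3p and miR-219-2-3p followed at 0.11, and miR-107-3p was at place 4, at 0.13. For miR-107-3p the most alike were miR-381-3p at 0.048 and miR-127-5p at 0.075, and miR-103-3p was at place 6, at 0.13. The median distance over 251 miRNAs was 0.53 from miR-103-3p and 0.47 from miR-107-3p. The order of the libraries from WT2 through APP3 and WT1 to APP4 was shared by 26 miRNAs of this level, both guide strands included. The points are 4 libraries, with the sum of reads in common, and no test was made.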

How the data were processed

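Small RNA of 4 mouse cortices was sequenced once per mouse. The authors trimmed adapters and left out reads of low quality or outside 18 to 35 bases. They matched the rest to miRBase 19 with Bowtie and counted them with CLC Genomics Workbench. Their methods name a limit of 2 mismatches and 2 changed bases per end but no mismatch for miRBase. Their supplement, however, lists miRBase reads with mismatches. The counts were deposited without normalization. The authors also deposited values per 1000000 clean reads under the name TPM, which are RPM and were used only for the number of clean reads and as an alternative scaling. The submitters' processing notes name CASAVA 1.8.

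Counts were scaled to the miRNA reads of each library. Fisher's exact tests and exact permutation tests were two-sided (scipy 1.17.1), and 0.5 read was added before log2 fold changes. For the genotypes, edgeR 4.0.16 (R 4.3.3) was run on the 4 libraries with filterByExpr, TMM and the Benjamini-Hochberg method, and DESeq2 1.42.0 was an alternative. The scripts were tested on simulated data. The sibling pairs are those of the study's methods, and with them as a block the fit was an alternative. The deviations of WT1 and APP4 from their genotype means correlated at r = 0.235 across 252 miRNAs. Wilson intervals and the SE beside Fisher's tests cover counting error only, and PCR copies are not independent, while the SE of edgeR includes the spread between mice. Other alternatives were TMM, clean reads, library sizes without the 10 most abundant miRNAs, a minimum of 10 RPM, Bonferroni, a 2-fold limit, 5 reads added, no filter and each mouse left out.

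The named miRNAs were all rows numbered 103 or 107, the most abundant or called members of the 3 lists, and those with the smallest distance of centred log2 RPM. Members and lists were chosen with earlier results of these data known.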

Additional observations from a re-analysis of the deposited data

Results flagged for a closer look

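The log2 fold change of miR-107-5p was 0.69 between APP4 and WT1 and -0.034 between APP3 and WT2, so that the AD mouse lay above its sibling in one pair and below it in the other. It was singled out because the values of the pairs had opposite signs. The value between APP3 and WT2 was smaller in size than its SE of 0.29, and it turned to 0.035 without the 10 most abundant miRNAs. Whether the pairs differ was not tested. The reads behind it numbered 51 and 60 in the former pair and 50 and 47 in the latter.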

How the results depend on the processing

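Of 231 values and counts recomputed under the alternatives, 190 were labelled as kept. A fold change was kept with the same sign and side of the limits, and a count within 1.5-fold. A log2 ratio was kept with the same sign and a move smaller than the SD within genotypes. The number does not measure robustness, since a 2-fold limit, Bonferroni and a minimum of 10 RPM leave a fold change as it was. The alternatives for miR-15a-5p and miR-29c-3p were chosen after seeing the data. The calls between APP4 and WT1, APP3 and WT2, WT2 and WT1, and APP4 and APP3 numbered 104, 61, 89 and 73. With a 2-fold limit they numbered 50, 23, 38 and 38, with a minimum of 10 RPM 53, 30, 40 and 40, and with Bonferroni 65, 34, 51 and 47, since fewer miRNAs can pass. TMM turned the higher and lower calls from 87 and 17 to 39 and 46 between APP4 and WT1, from 67 and 22 to 40 and 37 between WT2 and WT1, and from 46 and 27 to 29 and 42 between APP4 and APP3. Without the 10 most abundant miRNAs they were 64 and 25 between APP4 and WT1, 40 and 37 between WT2 and WT1, and 43 and 25, from 30 and 31, between APP3 and WT2. With clean reads they were 88 and 15 between WT2 and WT1. Between APP4 and WT1, TMM turned miR-107-3p to -0.030, miR-103-3p to -0.15 and their sum to -0.13. The call of miR-107-5p was lost under TMM (0.43), without the 10 most abundant miRNAs (0.60), and with Bonferroni or 2-fold (0.69). Its value between APP3 and WT2 turned to 0.035 without those 10. Between WT2 and WT1, miR-103-3p was called under TMM and without those 10 (-0.63 in both), as was the sum under TMM (-0.60). edgeR gave 2 calls with the sibling pair as a block, none of them a miR-103 or miR-107 miRNA, and 0 to 21 with 1 mouse left out (3 without WT1, 0 without WT2, 21 without APP3 and 5 without APP4). The lone mouse of a genotype is then assumed to vary like the other genotype. Over these fits the log2 fold change ran from -0.012 to 0.38 for miR-107-5p, from -0.077 to 0.34 for miR-107-3p and from -0.21 to 0.37 for miR-103-3p. With 1 mouse left out, the difference in the log2 ratio of miR-107-3p to miR-103-3p ran from -0.035 (without WT1) to 0.14, of miR-107-3p to miR-107-5p from -0.36 to 0.21, with the sign turned without WT1 and without APP4, and of miR-103-1-5p to miR-103-2-5p from -0.0060 (without WT1) to 0.53. Apart from scaling and fewer miRNAs passing, the cause was not tested. At 3 to 60 reads a library, depth limits the 5p strands.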
